A study of Mus musculus with 9 samples.

Results

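The genes described here are the 299 mouse genes of the deposited table whose symbol is Zfp followed by digits alone, with Zfp36 set aside, out of 10762 genes in the table. The rule uses names and no expression value, but the family was chosen for description with earlier results of these data known. Expression was read from RNA sequencing of B16.SIY, a cultured mouse melanoma line of C57BL/6 origin in which every library, controls included, expressed the SIY peptide joined to dsRED, a red fluorescent protein. Lentivirus delivered a hairpin RNA to the cells, and puromycin was then used to select stable lines. The 3 groups were a control hairpin (SHC002), the hairpin shRNA1 against Decr2 and the hairpin shRNA2 against Decr2, with 3 libraries each, numbered 0, 1 and 2. Decr2 encodes a peroxisomal reductase needed to break down unsaturated fatty acids. The labels do not say how many selected lines stand behind a hairpin, so effects of a line and of its hairpin cannot be told apart. Nothing in the labels makes the replicates separate cultures, and the p-values therefore describe the spread between libraries, which may be technical.

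Zfp genes encode proteins with zinc fingers, mostly of the C2H2 kind, in which a pair of cysteines and a pair of histidines hold a zinc ion and the finger reads a short stretch of DNA. Many carry a KRAB box, a domain that binds the corepressor TRIM28, which in turn brings histone methylation and DNA methylation to the bound site. KRAB zinc finger genes lie in dense chromosomal clusters of related copies and are best known for silencing retroelements and for keeping imprints. Other family members have no KRAB box and act as activators, as ubiquitin ligases, on RNA or at the mitotic spindle.

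All 299 genes were protein-coding, and GENCODE M21 names 364 protein-coding genes in this way on the mouse assembly GRCm38, so the table held most of the family. Translated transcripts held a median of 11 C2H2 fingers (0 to 37), and 6 genes had no finger that matched the searched pattern. A KRAB-like box was found in 175 genes, which had a median of 12 fingers, and was not found in 124, which had a median of 8. The family name therefore joins several kinds of protein, and for the RNA-binding and spindle members the term transcription factor is too narrow. Chromosome 7 held 76 of the genes, chromosome 17 held 39 and chromosome 13 held 27. On the deposited log2 scale, which is not corrected for transcript length, the genes had a median of 4.02 against 5.35 for all genes of the table, and 153 of them (51.2%) lay in the lowest 25% of all levels.

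Promoters of 4 genes are printed here because these genes changed with both hairpins and stand for different promoter types. Zfp760 and Zfp512 were the most stable of those that rose, and Zfp207 was the 1 called lower in the fit without a replicate block. RefSeq on GRCm38.p6 gave the 250 bases before a transcript start. Capitals mark motif matches on either strand: the CCAAT box (CCAAT or ATTGG), the GC box (GGGCGG or CCGCCC), the E box (CACGTG) and the cyclic AMP response element (TGACGTCA). The windows are chr17:21707491-21707740 (plus strand), chr5:31452186-31452435 (plus), chr17:28176946-28177195 (plus, 1 of 2 listed starts) and chr11:80383029-80383278 (plus).
Zfp760: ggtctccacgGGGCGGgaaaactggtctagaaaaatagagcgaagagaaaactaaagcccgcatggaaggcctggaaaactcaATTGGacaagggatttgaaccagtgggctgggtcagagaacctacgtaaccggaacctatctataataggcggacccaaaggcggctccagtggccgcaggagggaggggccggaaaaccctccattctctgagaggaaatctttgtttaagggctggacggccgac
Zfp512: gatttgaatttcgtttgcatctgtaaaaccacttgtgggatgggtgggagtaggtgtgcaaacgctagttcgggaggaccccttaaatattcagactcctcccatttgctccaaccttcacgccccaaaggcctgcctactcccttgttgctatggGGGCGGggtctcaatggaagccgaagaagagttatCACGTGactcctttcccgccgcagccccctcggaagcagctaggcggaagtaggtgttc
Zfp523: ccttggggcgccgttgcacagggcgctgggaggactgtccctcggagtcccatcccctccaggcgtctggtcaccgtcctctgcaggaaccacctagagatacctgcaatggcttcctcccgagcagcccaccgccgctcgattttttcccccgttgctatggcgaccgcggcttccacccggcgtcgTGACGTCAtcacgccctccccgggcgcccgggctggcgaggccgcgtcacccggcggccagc
Zfp207: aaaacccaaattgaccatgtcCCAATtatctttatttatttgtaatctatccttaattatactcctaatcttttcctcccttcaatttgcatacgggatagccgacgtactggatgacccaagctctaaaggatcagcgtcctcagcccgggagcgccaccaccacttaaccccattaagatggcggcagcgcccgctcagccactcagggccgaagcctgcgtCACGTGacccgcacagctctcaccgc
Promoter entries were matched for 249 of the 299 genes, and 27025 genes of the table of promoters served as the comparison. In this paragraph all genes means these 27025, which were not limited to genes with expression values. The part of that in the differences was not tested. A gene counted for a motif if any of its listed starts held it. A CCAAT box stood in 52.2% of the Zfp genes against 37.5% of all genes, and a GC box in 43.8% against 35.4%. Zfp promoters had a median GC content of 54.6% against 52.4%. The E box was about as common in both (7.23% and 6.86%). Among the 11 genes that rose with both hairpins, 10 held a GC box, 8 a CCAAT box and 1 an E box (Zfp512). Zfp523 counts among the 10 through its other listed start, which is not printed. Zfp523 alone of the 11 held a cyclic AMP response element, which 4.02% of Zfp genes and 1.77% of all genes held. Promoters were matched for 24 genes higher in the average of both hairpins. Of these, 16 held a GC box, 13 a CCAAT box and 4 an E box. TGATGCAA, the composite element read by the stress factor ATF4, stood in 1 of the 249 Zfp promoters (0.402%) and in 0.918% of all genes. None of the 24 promoters of genes higher in the average of both hairpins held it. For an element this rare, 24 promoters are too few to show a lack.

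Decr2 itself measured 3.96, 4.10 and 3.71 in the control libraries, 2.87, 2.51 and 3.18 with shRNA1 and 0.84, 1.18 and 1.55 with shRNA2, so every hairpin library lay below every control. Its level was 47.6% of control with shRNA1 (adjusted p = 0.0195) and 15.04% with shRNA2 (adjusted p = 0.000568). All 10 melanocyte markers were in the table and none was called in the fit without a block, with summed linear values of 17540 to 19880 in controls, 13420 to 19160 with shRNA1 and 13300 to 23120 with shRNA2. Of 31 markers of immune, endothelial, fibroblast, epithelial and erythroid cells, 3 were in the table (Lck, Col1a1 and Pdgfrb), none was called in that fit, and their summed values were 13.3 to 14.2, 13.7 to 18.8 and 11.1 to 13.6 in the same order. With the replicate number as a block, Oca2 passed as higher with shRNA1 (adjusted p = 0.0145), Mlana and Sox10 as lower with shRNA2 (adjusted p = 0.047 and 0.0441), and Col1a1 as higher with shRNA1 (1.71, adjusted p = 0.0199). In the average Sox10 passed as lower and Col1a1 as higher (adjusted p = 0.0449 and 0.0175). Replicate 0 libraries had higher means than the remaining libraries for all 10 melanocyte markers, by 0.19 (Tyrp1) to 0.87 (Dct) on the log2 scale, and their part in the Zfp results was not tested. These libraries also stood apart for the Zfp genes, by less: 192 of 299 (64.2%) were lower there than in the other libraries, with a median difference of -0.065, against 49.0% of all genes. Replicate 0 of shRNA1 was the lowest library, with a median Zfp shift of -0.097 from the mean of all libraries, while the 3 controls lay at -0.022, -0.036 and -0.048. Counts are therefore also given without the libraries numbered 0.

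With shRNA1, 14 Zfp genes rose and 6 fell, with a moderated test on all genes and a call at an adjusted p under 0.05. That is 6.69% of the 299, below the background of 12.4% of all genes (745 or 6.92% higher, 591 or 5.49% lower). The median Zfp log2 fold change was 0.021, against 0.0018 for all genes. Above zero lay 163 of 299 values (54.5%), against 50.3% for all genes. All 3 shRNA1 libraries lay above all controls for 50 Zfp genes and below them for 34, where the background was 17.3% and 16.6% of all genes. These are bulk libraries, in which fewer cells with a transcript and less transcript per cell cannot be told apart. With the replicate number as a block the count was 36, with 26 higher and 10 lower, where the background was 24.6%. Without the libraries numbered 0 it was 60, where the background was 34.5%. Both shares stayed below their background. Dropping control replicate 1 left 3 calls and dropping control replicate 2 left 4 (background 3.15% and 3.05%). Dropping shRNA1 replicate 1 left 12 and shRNA1 replicate 2 left 11 (background 7.02% and 6.02%). Dropping shRNA2 replicate 1 or 2 left 13 (background 8.61% for each).

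With shRNA2 the calls leaned to one side: 24 Zfp genes rose and 1 fell. The share called, 8.36%, was again below the background of 12.9% (782 or 7.27% higher, 610 or 5.67% lower). The median log2 fold change was 0.079 against 0.0046 for all genes, with 185 values (61.9%) above zero against 50.6% for all genes. The libraries did not overlap the controls for 69 higher and 26 lower Zfp genes, beside 20.1% and 18.7% of all genes. The block moved this count to 48, with 41 higher and 7 lower (background 24.0%). Without the libraries numbered 0 it was 80 (background 37.3%). Both were again below the share of all genes. Dropping control replicates 0, 1 or 2 left 16, 7 or 7 calls (background 9.83%, 3.88% and 3.77%). Dropping shRNA1 replicate 0 gave 47 (background 22.8%), and dropping shRNA2 replicates 1 or 2 left 5 or 4 (background 4.01% and 4.38%).

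The average of both hairpins against control gave 25 higher and 6 lower Zfp genes, 10.4% of the family beside a background of 17.6% (1043 or 9.69% higher, 849 or 7.89% lower). The median was 0.051, against -0.00057 for all genes. The block gave 57 calls, with 45 higher and 12 lower (background 30.3%). Leaving out the libraries numbered 0 gave 89 (background 41.4%). Dropping control replicate 1 or 2 left 10 calls (background 5.72% and 5.86%). Dropping shRNA2 replicate 1 left 18 (background 12.2%), and dropping shRNA1 replicate 0 gave 53 (background 24.5%). In total 36 Zfp genes passed in at least 1 comparison with control, and 263 in none.

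Among all genes, low level and the lean towards higher values went together. With shRNA2 the Zfp genes leaned higher at low levels and above them. Of the 153 Zfp genes in the lowest 25% of levels, 8 (5.23%) were called with shRNA1, 10 (6.54%) with shRNA2 and 13 (8.50%) in the average, all of them higher. Among all 2691 genes of that level range 13.2%, 12.9% and 18.2% were called, so the Zfp shares lay below. With the block the average gave 24 higher and 3 lower Zfp genes there (background 29.5%). All genes of the range leaned the same way, with 415 higher and 74 lower in the average and 67.1% of values above zero, against 67.3% for the Zfp genes. Above that range, 6 Zfp genes rose and 6 fell with shRNA1, 14 rose and 1 fell with shRNA2, and 12 rose and 6 fell in the average. All 8071 genes above it gave 446 higher and 535 lower with shRNA1 (12.2% called), 485 and 561 with shRNA2 (13.0%), and 628 and 775 in the average (17.4%). The median shRNA2 log2 fold change there was 0.037 for the Zfp genes and -0.025 for all genes, with 56.2% and 45.4% of values above zero. The part of level in the lean was not tested.

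Calls with both hairpins in the same direction were made for 12 Zfp genes, 11 higher and 1 lower, which is 4.01% beside a background of 7.55% (4.54% higher, 3.01% lower). Both comparisons use the same control libraries. The block raised the count to 21, with 17 higher and 4 lower (background 15.4%). Leaving out the libraries numbered 0 raised it to 43 (background 23.7%). Dropping control replicate 1 left 2 genes and control replicate 2 left 3 (background 1.75% and 1.76%). Dropping shRNA1 replicate 2 left 4 (background 3.72%), and dropping shRNA2 replicate 1 or 2 left 3 (background 2.91% and 3.06%). Zfp512 and Zfp760 kept both calls in every alternative that was run, and all the others lost theirs without control replicate 1. Of the 11 higher genes, 5 lay in the lowest 25% of all levels (Zfp677, Zfp775, Zfp867, Zfp964 and Zfp979). Among all 2691 genes of that range, 198 were called higher and 18 lower with both hairpins.

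Zfp760, a KRAB zinc finger gene with 17 fingers (ENSMUSG00000067928, chromosome 17 from 21707741 to 21725636 on the plus strand), measured 3.73, 3.74 and 3.80 in the control libraries, 4.37, 4.56 and 4.61 with shRNA1 and 4.47, 4.59 and 4.42 with shRNA2. The control libraries spanned a narrow range, and all 6 hairpin libraries lay above it. The gene rose by 0.75 (SE 0.095, adjusted p = 0.00311) with shRNA1 and by 0.73 (adjusted p = 0.00321) with shRNA2. Zfp512, which has 3 fingers and no KRAB-like box (ENSMUSG00000062761, chromosome 5 from 31452431 to 31481754 on the plus strand), measured 4.98, 5.004 and 5.05 in the control libraries, 5.45, 5.58 and 5.69 with shRNA1 and 5.48, 5.73 and 5.73 with shRNA2. Replicate 0 was the lowest library in both hairpin groups and still lay well above the controls. Zfp512 rose by 0.56 (SE 0.096, adjusted p = 0.00908) and 0.63 (adjusted p = 0.00553) with shRNA1 and shRNA2.

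Zfp964, a KRAB gene of the chromosome 8 cluster, had the largest rise of the 11. It measured 0.73, 0.54 and 1.19 in the control libraries, 1.83, 1.998 and 1.73 with shRNA1 and 1.70, 1.67 and 1.59 with shRNA2. The controls differed widely among themselves, and no hairpin library overlapped them. Zfp964 rose by 1.03 (SE 0.22, adjusted p = 0.0187) with shRNA1 and by 0.83 (adjusted p = 0.038) with shRNA2. Of the fits that left out 1 library, only those without control replicate 2 or shRNA1 replicate 0 kept its call with both hairpins. That call was also lost without the libraries numbered 0 and with only the compared groups in the fit. Zfp979, a KRAB gene on chromosome 4, measured 2.20, 2.38 and 1.98 in the control libraries, 2.89, 3.16 and 2.97 with shRNA1 and 2.68, 2.78 and 2.78 with shRNA2. Its libraries were ordered controls, shRNA2 and shRNA1 with no overlap, and it rose by 0.82 (adjusted p = 0.0103) and 0.56 (adjusted p = 0.0374). Zfp984, its neighbour in the same cluster, changed least of the 11, by 0.25 (adjusted p = 0.0417) and 0.36 (adjusted p = 0.0125).

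Zfp810, a KRAB gene on chromosome 9, measured 3.65, 3.71 and 3.75 in the control libraries, 4.08, 4.34 and 4.22 with shRNA1 and 4.34, 4.59 and 4.45 with shRNA2. It was higher with shRNA2 than with shRNA1 in the mean, 0.76 (adjusted p = 0.00407) against 0.51 (adjusted p = 0.0167), and that difference did not pass its own test (adjusted p = 0.466, 95% interval 0.012 to 0.48). Zfp523, the mouse form of ZNF76 and a close relative of the promoter-binding activator Zfp143, measured 5.34, 4.99 and 5.0 in the control libraries, 5.70, 5.44 and 5.54 with shRNA1 and 5.79, 5.79 and 5.67 with shRNA2. Control replicate 0 stood nearest to the hairpin libraries. Zfp523, whose cyclic AMP response element is printed in capitals in its promoter, rose by 0.45 (adjusted p = 0.0322) and 0.64 (adjusted p = 0.00951).

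The other genes that rose with both hairpins were Zfp677 (0.58 with shRNA1, 0.49 with shRNA2), Zfp775 (0.56, 0.70), Zfp867 (0.45, 0.55) and Zfp839 (0.42, 0.39). Zfp677 and Zfp867 have a KRAB-like box, Zfp775 has none, and no finger of the searched pattern was found in Zfp839. In Zfp775 shRNA1 replicate 1 lay at 3.67, just above the highest control at 3.58, and its shRNA1 call had the weakest support of the 11 (adjusted p = 0.0487). The authors' deposited moderated test did not call it with shRNA1 (adjusted p = 0.0578). Its call with both hairpins was lost with median centring, with no trend and without the libraries numbered 0. Of the fits that left out 1 library, only that without shRNA1 replicate 1 kept it.

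Zfp207 was the single Zfp gene called lower with both hairpins in the fit without a block. With the block 4 were called lower. It encodes BuGZ, a protein of the mitotic spindle that binds the checkpoint protein BUB3, and lies on chromosome 11 from 80383279 to 80405733 on the plus strand (ENSMUSG00000017421). It measured 8.09, 8.01 and 7.99 in the control libraries, 7.64, 7.75 and 7.75 with shRNA1 and 7.76, 7.74 and 7.70 with shRNA2. The groups did not overlap and the hairpin libraries lay close together. The log2 fold changes were -0.32 (SE 0.066, adjusted p = 0.0169) and -0.30 (adjusted p = 0.0206). The call with both hairpins was lost without any 1 of the 3 control libraries and without shRNA2 replicate 1 or 2.

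**Figure D1:**
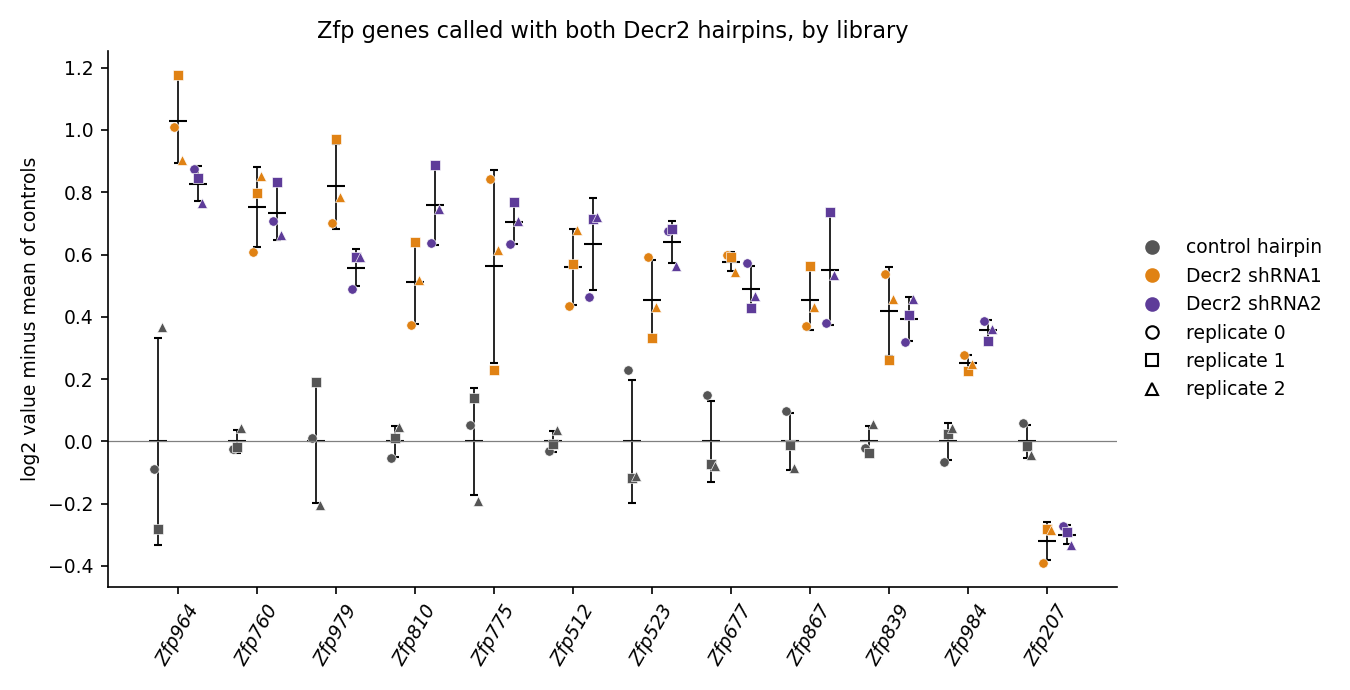
Each point is 1 library's log2 value minus the mean of the controls for the 12 Zfp genes called with both Decr2 hairpins, with bars for the mean and SD of 3 libraries and a marker shape for the replicate number. All hairpin libraries lie above the controls for 11 genes and below them for Zfp207, and the controls of Zfp964 spread more than those of Zfp512 or Zfp760.

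With shRNA1 alone, 3 Zfp genes rose and 5 fell. The largest fall was that of Zfp568, a KRAB repressor known for silencing a placental transcript of Igf2, on chromosome 7 from 29983955 to 30028282 on the plus strand (ENSMUSG00000074221). It measured 5.29, 5.82 and 5.76 in the control libraries, 3.65, 4.80 and 4.60 with shRNA1 and 4.80, 5.33 and 5.35 with shRNA2. Replicate 0 was the lowest library in each of the 3 groups, and shRNA1 replicate 0 was the lowest of all 9. The fall was -1.27 (SE 0.29, adjusted p = 0.024) with shRNA1, and with shRNA2 the value was -0.46 (adjusted p = 0.327), where the libraries overlapped the controls. With the replicate block the shRNA2 value passed too (adjusted p = 0.0276). The shRNA1 call was lost without control replicate 1 or 2.

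Zfp91, an atypical ubiquitin ligase with fingers, measured 7.47, 7.50 and 7.47 in the control libraries, 6.82, 7.08 and 7.11 with shRNA1 and 7.32, 7.35 and 7.46 with shRNA2. The controls were nearly identical, shRNA1 lay clearly below them and shRNA2 only just. It fell by 0.47 with shRNA1 (adjusted p = 0.0117) and stood at -0.11 with shRNA2 (adjusted p = 0.47). Zfp24, a SCAN-domain protein needed for myelination, had values of 6.67, 6.68 and 6.74 in the control libraries, 6.05, 6.41 and 6.31 with shRNA1 and 6.54, 6.57 and 6.45 with shRNA2, again without overlap of shRNA1 and control. It fell by 0.44 with shRNA1 (adjusted p = 0.0205), with -0.18 for shRNA2 (adjusted p = 0.258). The shRNA1 calls of Zfp91 and Zfp24 were lost without control replicate 1 or 2.

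Smaller falls with shRNA1 were those of Zfp706 (-0.28, adjusted p = 0.048) and Zfp326 (-0.27, adjusted p = 0.0476), a subunit of the DBIRD complex that links elongation to splicing. Both were near the threshold, and the Zfp326 call was lost in 8 of the 9 fits that left out 1 library, the exception being shRNA1 replicate 0. The Zfp706 call was lost in all but those without control replicate 0 or shRNA2 replicate 0. The 3 genes that rose with shRNA1 alone were the KRAB genes Zfp52 (0.58, adjusted p = 0.0328) and Zfp30 (0.54, adjusted p = 0.0263), and Zfp414 (0.51, adjusted p = 0.0362). Their shRNA2 values were 0.36, 0.41 and 0.37 (adjusted p = 0.143, 0.0604 and 0.0958), and those of Zfp52 and Zfp30 passed with the block (adjusted p = 0.0387 and 0.0487). Each of these 3 calls was lost without control replicate 1 or 2, among other libraries.

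With shRNA2 alone, 13 Zfp genes rose and none fell, and 9 of the 13 have a KRAB-like box. The largest change was in Zfp467, a zinc finger cofactor that favours fat cells over bone cells in marrow stroma. It measured 3.02, 3.28 and 3.29 in the control libraries, 3.56, 3.48 and 3.27 with shRNA1 and 3.76, 3.91 and 3.94 with shRNA2. The shRNA2 libraries lay above all others, and shRNA1 overlapped the controls through its replicate 2. The rise with shRNA2 was 0.67 (SE 0.12, adjusted p = 0.0115), and shRNA1 gave 0.24 (adjusted p = 0.237). Without shRNA2 replicate 1 or 2 the call was lost.

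Zfp54, a KRAB gene of the chromosome 17 cluster, had closely spaced shRNA2 libraries at 2.63, 2.64 and 2.62, above controls at 1.78, 2.26 and 1.89. It rose by 0.65 (adjusted p = 0.0319), and its call was lost in 6 of the 9 fits that left out 1 library. Zfp946, a KRAB gene 1 megabase further along the same cluster, measured 3.38, 3.33 and 3.27 in the control libraries, 3.43, 3.45 and 3.65 with shRNA1 and 3.65, 4.04 and 3.997 with shRNA2. It rose by 0.57 with shRNA2 (adjusted p = 0.0226), with 0.18 for shRNA1 (adjusted p = 0.385). Zfp974 (0.61, adjusted p = 0.0465), Zfp688 (0.51, adjusted p = 0.0418) and Zfp260 (0.48, adjusted p = 0.0261), a partner of GATA4 in heart muscle, were the next largest. The calls of Zfp946, Zfp974, Zfp688 and Zfp260 were lost without control replicate 2, shRNA2 replicate 1 or shRNA2 replicate 2, among other libraries. Zfp974 and Zfp688 were close to the threshold and also lost their calls when each library was centred on its median.

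A call with 1 hairpin and not the other is no difference between them, and that difference was tested directly. No Zfp gene passed for shRNA2 against shRNA1 in limma, where the background was 0.455% of all genes (0.223% higher, 0.232% lower). At an unadjusted p under 0.05 in limma there were 20 higher and 3 lower among the 299 Zfp genes, beside 574 higher and 507 lower among all 10762. The median difference was 0.062, against 0.0047 for all genes. With shRNA2 201 of 299 values (67.2%) were higher, against 51.3% for all genes. Zfp568 differed by 0.81 (95% interval 0.16 to 1.46, adjusted p = 0.369) and Zfp91 by 0.37 (0.17 to 0.57, adjusted p = 0.147). These were the 2 Zfp genes that passed with the replicate block (adjusted p = 0.02 and 0.0481, background 1.87%), and 11 passed without the libraries numbered 0, where 8.87% of all genes did. For Zfp760, Zfp207, Zfp839 and Zfp532 the intervals ran from -0.23 to 0.20, -0.13 to 0.17, -0.24 to 0.19 and -0.25 to 0.21, so a difference between the lines within those bounds is not excluded by these libraries.

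**Figure D2:**
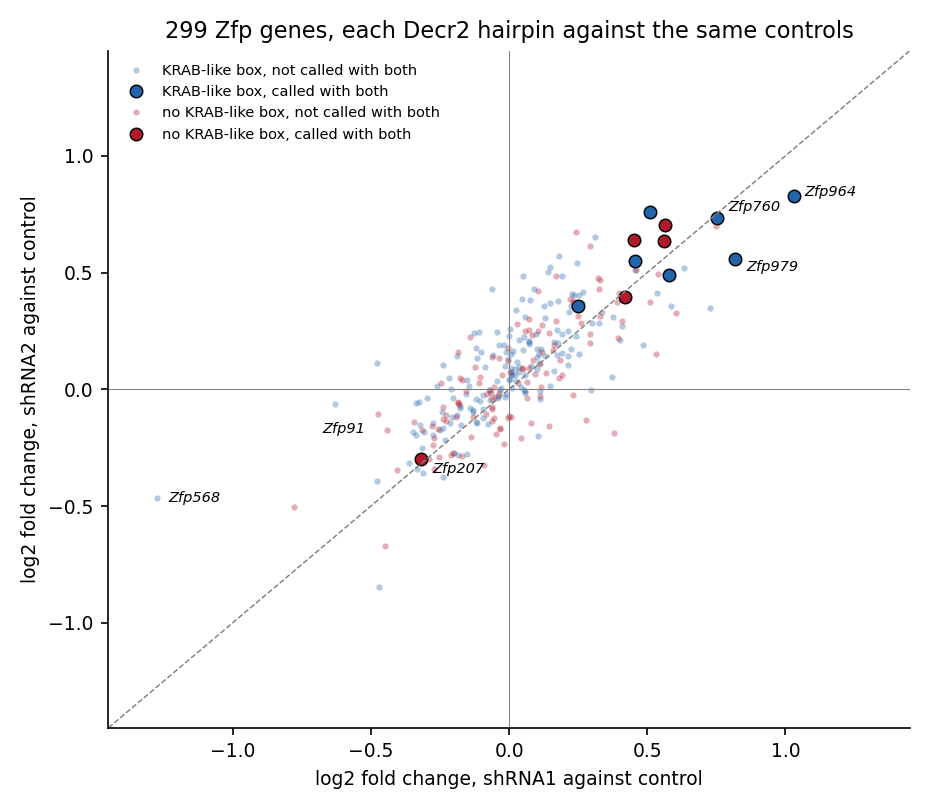
Each of the 299 Zfp genes is placed by its log2 fold change with shRNA1 (horizontal) and shRNA2 (vertical) against the same 3 control libraries, in blue with and in red without a KRAB-like box, and the 12 genes called with both hairpins are outlined. Zfp964, Zfp760 and Zfp692 have the highest averages over both axes, and Zfp568 lies far left at -1.27 and -0.46; the axes share controls, so the alignment of points along the diagonal is partly built in.

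Of 13 Zfp genes known to act on RNA, ribosomes or the spindle, 3 fell and none rose with shRNA1 (23.1%, background 12.4%), 1 fell (Zfp207) and 1 rose (Zfp346) with shRNA2 (15.4%, background 12.9%), and 2 fell in the average (15.4%, background 17.6%). The median in the average was -0.099 against -0.00057 for all genes. Zfp346, a protein that binds double-stranded RNA, measured 5.51, 5.57 and 5.54 in the control libraries, 5.60, 5.67 and 5.57 with shRNA1 and 5.77, 5.87 and 5.89 with shRNA2. The shRNA2 libraries stood above all others, with 0.30 (adjusted p = 0.0237), and shRNA1 gave 0.073 (adjusted p = 0.524). The Zfp346 call was lost without any 1 of the control libraries and without shRNA2 replicate 1 or 2. With the block the average gave 1 higher and 3 lower in this list (background 30.3%). Zfp622, a factor in the maturation of the large ribosomal subunit, had an average of -0.23 (adjusted p = 0.192). Zfp106, an RNA-binding protein needed by motor neurons, had -0.24 (adjusted p = 0.226), and its replicate 0 of shRNA1 was the lowest of the 9 libraries at 7.58.

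Among 20 broad activators and chromatin factors, 2 rose and 1 fell in the average (15.0%, background 17.6%), with a median of -0.057. Zfp692, first described as a repressor of a gluconeogenic gene, measured 2.73, 2.21 and 2.20 in the control libraries, 3.41, 3.08 and 2.89 with shRNA1 and 3.43, 2.92 and 2.88 with shRNA2. Replicate 0 was the highest library of each group, and the groups did not overlap. Its average was 0.72 (SE 0.19, adjusted p = 0.0289), and the separate hairpins missed the threshold (adjusted p = 0.0536 and 0.0652) but passed with the block (adjusted p = 0.00348 and 0.00464). Zfp532, which works with the chromatin reader ZMYND8, rose in the average by 0.32 (adjusted p = 0.0356), and Zfp91 was the gene that fell. With the block Zfp532 also passed with each hairpin (adjusted p = 0.0394 and 0.0486). The averages of Zfp692 and Zfp532 lost their calls without control replicate 1 or 2. Zfp219, a partner of SOX9 in cartilage, the BTB protein Zfp131 and Zfp384, which binds collagen and metalloprotease promoters, had averages of 0.25, 0.35 and -0.17 (adjusted p = 0.0663, 0.112 and 0.141). The average of Zfp91 was lost without any 1 of the control libraries and without shRNA2 replicate 0 or 1. The block gave 4 higher and 1 lower in this list (background 30.3%). With it, Zfp219 and Zfp131 passed (adjusted p = 0.029 and 0.0291).

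Of 16 listed KRAB genes with a known role at imprints or retroelements, 10 were in the table. In the average 1 rose (Zfp30) and 1 fell (Zfp568), beside a background of 17.6%, and the median was 0.091. Both averages lost their calls without control replicate 1 or 2, among other libraries. Zfp809, which recognises the primer binding site of murine leukemia viruses, measured 4.72, 4.38 and 4.51 in the control libraries, 4.09, 4.30 and 4.29 with shRNA1 and 4.33, 4.26 and 4.46 with shRNA2. All shRNA1 libraries were below the controls and shRNA2 overlapped them, with an average of -0.25 (adjusted p = 0.112). Zfp617, Zfp961 and Zfp932 had averages of 0.32, -0.17 and 0.11 (adjusted p = 0.124, 0.174 and 0.489). With the block Zfp961 passed as lower with shRNA1 (adjusted p = 0.0349) and Zfp617 as higher with shRNA2 (adjusted p = 0.0474).

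Of 16 listed lineage and development genes, 7 were in the table. Zfp467 rose in the average (0.46, adjusted p = 0.0202) and no gene fell (14.3%, background 17.6%), with a list median of -0.11. That call was lost without any 1 of the control libraries. Zfp423, a marker of fat cell precursors, measured 3.82, 2.86 and 3.11 in the control libraries, 2.67, 2.58 and 3.19 with shRNA1 and 2.62, 2.29 and 2.86 with shRNA2. Control replicate 0 was the highest library by far and the groups overlapped, and the average of -0.56 did not pass (adjusted p = 0.131). Zfp462, a heterochromatin regulator, Zfp292, Zfp516, an activator of brown fat genes, and Zfp536, a repressor in neurons, had averages of -0.24, -0.18, -0.11 and -0.089, none of which passed (adjusted p = 0.37, 0.531, 0.563 and 0.842). In Zfp462, Zfp292 and Zfp516 the lowest library was replicate 0 of shRNA1.

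Split by architecture, the 175 genes with a KRAB-like box gave 9 higher and 1 lower with shRNA1, 16 higher and none lower with shRNA2, and 16 higher and 1 lower (Zfp568) in the average. The 124 genes without one gave 5 higher and 5 lower, 8 higher and 1 lower, and 9 higher and 5 lower. The shares called were 5.71%, 9.14% and 9.71% with the box and 8.06%, 7.26% and 11.3% without it, all below the backgrounds of 12.4%, 12.9% and 17.6%. Median log2 fold changes with shRNA2 were 0.11 for the first class and 0.036 for the second, and with shRNA1 0.021 and 0.0054. Of the 25 genes higher in the average 64.0% had a KRAB-like box, of the 6 lower genes 16.7% and of the 268 not called 59.0%. With the block shRNA2 gave 26 higher and 2 lower with a KRAB-like box and 15 higher and 5 lower without one (background 24.0%). The average with the block gave 26 and 4 with the box and 19 and 8 without it (background 30.3%). On the deposited log2 scale, which is not per length, KRAB genes had a median of 3.75 against 4.70, and the part of level in this split was not tested. The lower genes had a median of 4.5 fingers and the higher ones 10. The difference between the classes was not tested.

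In 17 clusters of at least 4 Zfp genes, each no more than 500 kb from the next, lay 139 of the genes, with 17 higher and 2 lower in the average, against 8 higher and 4 lower among the 160 outside. These shares, 13.7% and 7.50%, were both below the background of 17.6%, and the difference between them was not tested. With the block the counts were 23 and 4 inside the clusters and 22 and 8 outside (background 30.3%). No call in the average was made in 8 of the clusters, among them the cluster of 17 genes on chromosome 13 (67038596 to 67827002), whose median in the average was 0.039. The largest cluster spans 2591 kb of chromosome 17 (21008903 to 23599487) and held 22 genes of the table, each with a KRAB-like box. It was singled out after its values had been seen. Its log2 fold changes were above zero for 20 genes with shRNA1 and for 22 with shRNA2, with medians of 0.20 and 0.25. Called genes were 3 higher with shRNA1 (13.6%, background 12.4%), 6 higher with shRNA2 (27.3%, background 12.9%) and 7 higher in the average (31.8%, background 17.6%), namely Zfp677, Zfp54, Zfp52, Zfp760, Zfp943, Zfp994 and Zfp946, and none was lower. With the block the counts were 4 (18.2%), 9 (40.9%) and 10 (45.5%), all higher, beside backgrounds of 24.6%, 24.0% and 30.3%. The shRNA1 share was then below its background.

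Per library, the cluster's median shift from the mean of all libraries was -0.037, -0.21 and -0.21 in the controls, 0.031, 0.038 and 0.061 with shRNA1, and 0.12, 0.11 and 0.091 with shRNA2. Control replicate 0 lay closest to the hairpin libraries. Without it the shRNA2 median was 0.32, and without control replicate 1 it was 0.17. Dropping control replicate 1 or 2 left 1 call with shRNA1 (background 3.15% and 3.05%). With shRNA2 it left 2 or 1 (background 3.88% and 3.77%). Dropping shRNA2 replicates 0, 1 or 2 left 3, 1 or 1 calls with shRNA2 (background 9.6%, 4.01% and 4.38%). In the average, dropping control replicates 0, 1 or 2 left 4, 3 or 2 of the 7 calls (background 14%, 5.72% and 5.86%). Dropping shRNA1 replicate 2 or shRNA2 replicate 2 left 4 (background 14.2% and 12.3%), and dropping shRNA2 replicate 1 left 3 (background 12.2%). Leaving out the libraries numbered 0 gave 11 (background 41.4%). The other gene of the table in this window, Gm7072, had 0.02 with shRNA1 and 0.17 with shRNA2. Genes of such clusters are close copies of each other, and the counting of reads can split or move reads between copies, so the value of a single cluster gene is less certain than that of a gene without copies.

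**Figure D3:**
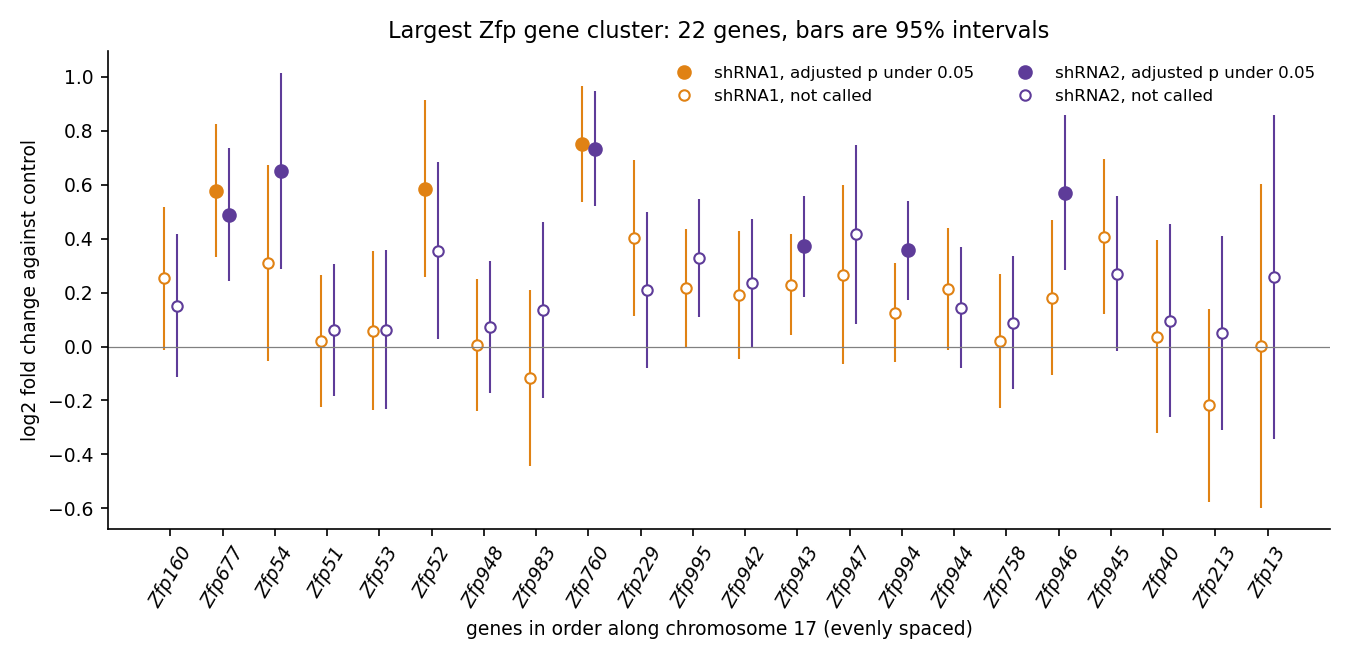
Log2 fold changes against control, with 95% intervals, are drawn for the 22 Zfp genes of the chromosome 17 cluster in their order along the chromosome, with filled points for calls at an adjusted p under 0.05. Nearly all points lie at or above zero, and Zfp760 and Zfp677 are the genes filled for both hairpins.

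**Figure D4:**
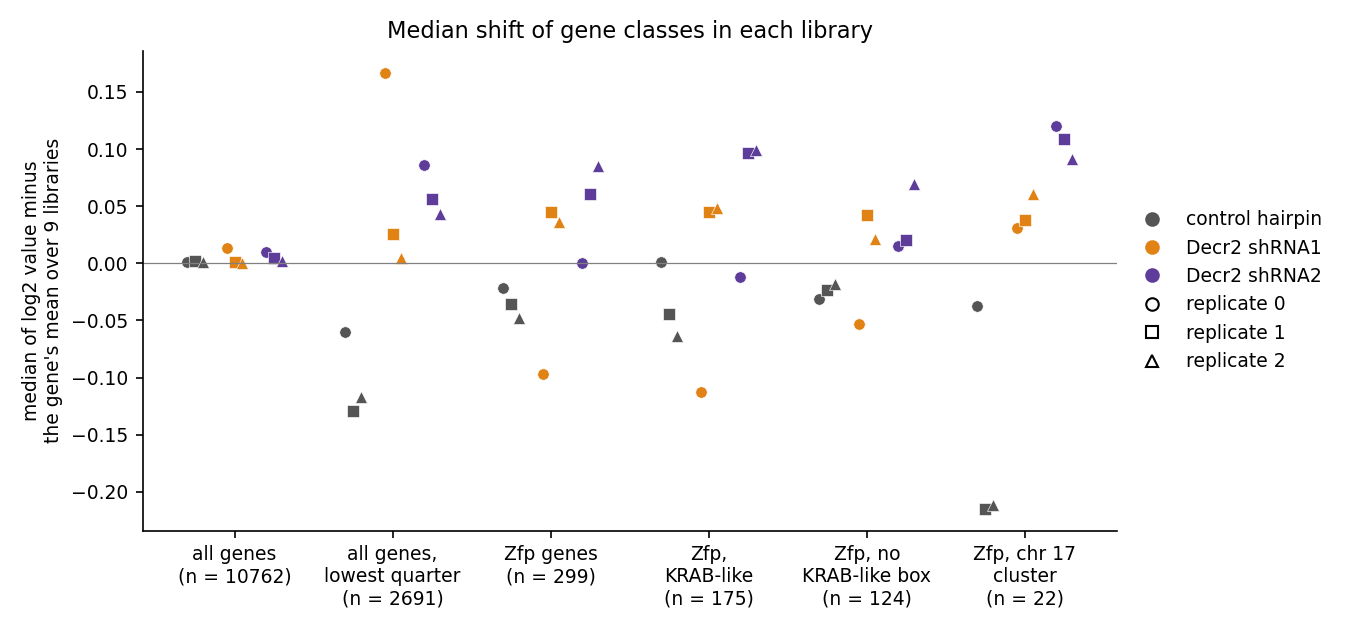
Points give, for each of the 9 libraries, the median over a gene class of the log2 value minus that gene's mean over all libraries. All Zfp genes together range from -0.097 (shRNA1 replicate 0) to 0.085 (shRNA2 replicate 2), the lowest 25% of all genes has its highest value of 0.17 in shRNA1 replicate 0, and the chromosome 17 cluster is lowest in control replicates 1 and 2.

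KRAB proteins silence through shared partners, and 31 of the partner genes reported here were in the table. Most of their values were negative: 6 fell with shRNA1, 5 fell with shRNA2 and 6 fell in the average, which is 19.4%, 16.1% and 19.4% of the 31 beside backgrounds of 12.4%, 12.9% and 17.6%. The medians were -0.20, -0.15 and -0.18, and 4 of 31 values (12.9%) were above zero in the average, against 49.9% for all genes. The block gave 12 lower in the average, which is 38.7% beside a background of 30.3%. On the same log2 scale, not per length, the partners had a median of 7.03, and all genes above the lowest 25% of levels had a median of -0.031 in the average.

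Trim28, the corepressor that KRAB boxes bind, measured 8.70, 8.66 and 8.73 in the control libraries, 8.38, 8.35 and 8.26 with shRNA1 and 8.39, 8.20 and 8.28 with shRNA2. No hairpin library reached the controls, and Trim28 fell by 0.37 (SE 0.073, adjusted p = 0.0151) and 0.41 (adjusted p = 0.0104). Uhrf1, which guides maintenance DNA methylation, had -0.42 and -0.38 (adjusted p = 0.0122 and 0.016), and Dnmt3b, a de novo DNA methyltransferase, had -0.45 and -0.51 (adjusted p = 0.0355 and 0.023). Cbx1, a heterochromatin protein of the HP1 family, and Sumo2 fell with shRNA1 (-0.32 and -0.29, adjusted p = 0.0218 and 0.0477). Their shRNA2 values were -0.15 and -0.23 (adjusted p = 0.178 and 0.0892). Cbx3, another HP1 protein, fell in the average (-0.31, adjusted p = 0.0445), a call lost in 6 of the 9 fits that left out 1 library, control replicates 1 and 2 among them. With the block Cbx3 passed as lower with each hairpin (adjusted p = 0.0171 and 0.0495). The shRNA1 calls of Trim28, Uhrf1, Dnmt3b, Cbx1 and Sumo2 were lost without control replicate 1 or 2, and so were the shRNA2 calls of Uhrf1 and Dnmt3b, while that of Trim28 was lost without control replicate 2. The partner count with shRNA1 was 0 without control replicate 1 or 2 (background 3.15% and 3.05%). It was 3, 2 and 3 on dropping shRNA1 replicate 1, shRNA1 replicate 2 or shRNA2 replicate 1 (background 7.02%, 6.02% and 8.61%). With shRNA2, dropping control replicates 0, 1 or 2 left 3, 1 or 0 (background 9.83%, 3.88% and 3.77%). Dropping shRNA2 replicates 0, 1 or 2 left 2, 1 or 3 (background 9.6%, 4.01% and 4.38%), and dropping shRNA1 replicate 2 left 3 (background 9.65%). In the average, dropping control replicate 1 or 2 left 2 (background 5.72% and 5.86%) and dropping shRNA2 replicate 1 left 3 (background 12.2%).

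**Figure D5:**
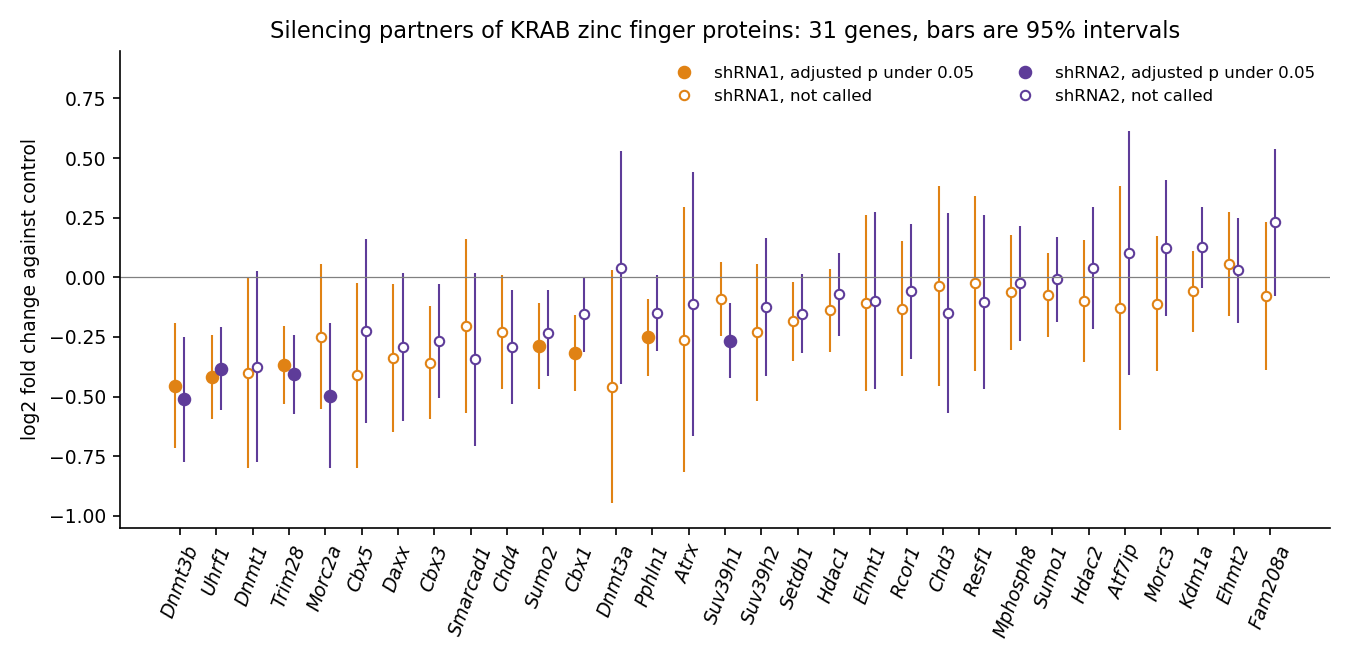
Log2 fold changes against control, with 95% intervals, are drawn for 31 genes of the KRAB silencing machinery, ordered by their average over both hairpins, with filled points for calls at an adjusted p under 0.05. Dnmt3b, Uhrf1 and Trim28 at the left are called lower with both hairpins.

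The data bounded the change more tightly for some Zfp genes than for others. The 95% interval lay within a log2 change of 0.5 in either direction for 154 of 299 genes with shRNA1, 147 with shRNA2 and 183 in the average, and for 194 between the hairpins. Within a change of 1 lay 283, 287, 290 and 293 genes. The median distance from the estimate to either bound was 0.30 for each hairpin, close to the 0.28 of all genes. Genes that passed no test are therefore not shown to be unchanged.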

How the data were processed

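The members and the gene lists were chosen with earlier results of these data known. RNA sequencing of 9 libraries was analysed from 1 deposited table. Per the file headers it holds a log2 value per gene and library. For each hairpin the authors also deposited a log2 fold change, a p-value and a moderated t score per gene. The submitters' processing notes name FastQC, kallisto and limma. Build, annotation, strand setting and low-level filter were not given in the sources used here. Raised as powers, the deposited log2 values of each library summed to between 969464 and 1045849, and read depth is unknown, so precision comes from the spread between libraries. Column codes give control and number only. Columns were linked to hairpins through the authors' headed fold changes: 99.95% of those headed shRNA1 lay within 0.05 of the columns used as shRNA1, and 26.6% within 0.05 of the other set.

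Values were fitted as deposited with limma 3.58.1 in R 4.3.3, with a mean per group, all 9 libraries, an intensity trend (3.3 prior and 6 residual degrees of freedom) and Benjamini-Hochberg adjustment over 10762 genes. A call is an adjusted p under 0.05. SE and 95% intervals come from this fit. The code was tested on simulated data. The authors' deposited table called 18 Zfp genes with shRNA1 (13 higher) and 25 with shRNA2 (24 higher), all of them also called here.

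Genes were named by rule: up to 12 per direction called with both hairpins, up to 6 per direction called with 1 hairpin, and up to 6 per list by adjusted p in the average. The partner list leaves out 1 gene, which is not reported here and enters no partner count. Same-numbered libraries deviated together in all 9 pairs across groups (r from 0.13 to 0.64 across genes), which meets the rule used here for treating the numbers as pairing the libraries. The fit that gives the values has no block. The fit with the number as a block, which calls more genes, is given beside many of the results that it changes. The pairing is a hint from the data, since numbers 1 and 2 also correlated with each other (0.13 to 0.53). Proteins were translated from GENCODE M21 transcripts; fingers were counted by the C2H2 spacing pattern, and KRAB-like boxes by an iterated profile of 42 residues with a score above 0 bits (reversed proteins reached -41.6 at most). The proteins were to come from RefSeq in the original plan. Promoters are from RefSeq. Coordinates are those of GRCm38, which need not be the build of the authors. Alternatives were the block, only the compared groups in the fit, the lowest 25% of genes removed, median centring, a pseudocount of 1, no trend, each library left out, and the libraries numbered 0 left out. The alternatives for the chromosome 17 cluster and 4 of those for the partner genes were added after the data had been seen.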

Additional observations from a re-analysis of the deposited data

How the results depend on the processing

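With the replicate block, calls among the 299 Zfp genes were 36 with shRNA1, 48 with shRNA2, 57 in the average, 21 with both hairpins and 2 between hairpins, in place of 20, 25, 31, 12 and 0, and 10, 9 and 12 of the partner genes in place of 6, 5 and 6. With only the compared groups in the fit they were 6 with shRNA1 and 5 with both (partners with shRNA1, 2), where 6.27% and 4.46% of all genes were called. With the lowest 25% of genes removed, which leaves 8071 genes to test, they were 12 (6 higher, 6 lower), 15, 18 and 7. Of the 8071 genes 11.9%, 13%, 17.3% and 7.33% were called with shRNA1, with shRNA2, in the average and with both. Without the libraries numbered 0 they were 60, 80, 89, 43 and 11, and 11, 13, 14 and 2 for the partners (34.5%, 37.3%, 41.4%, 23.7% and 8.87% of all genes with shRNA1, with shRNA2, in the average, with both and between hairpins). Leaving out 1 library in turn gave 3 to 24, 4 to 47, 10 to 53, 2 to 18 and 0 to 0, and for the partners 0 to 5, 0 to 7, 2 to 8 and 0 to 0. In those fits the share of all genes called ran from 3.05% to 14.7% with shRNA1 and 3.77% to 22.8% with shRNA2. It ran from 5.72% to 24.5% in the average, 1.75% to 9.87% with both and 0.0279% to 0.873% between hairpins. A group left with 2 libraries drew on the pooled spread. Centring, the pseudocount and the prior without trend left these counts within 1.5 times. Over the named genes, comparisons and alternatives, 2678 values kept their side of the threshold, 306 lost a call, 84 gained one, and no called value reversed. The cause of these changes was not tested beyond the smaller number of genes or libraries. Depth is unknown, and 3 libraries a group limit what can be called.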

Other observations

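Zfp36, which the naming rule leaves out, encodes tristetraprolin, a zinc finger protein that binds AU-rich messenger RNA and speeds its decay. It measured 1.85, 2.16 and 1.96 in the control libraries, 2.27, 2.82 and 2.87 with shRNA1 and 1.78, 2.43 and 2.61 with shRNA2. With shRNA1 all libraries lay above the controls, and with shRNA2 replicate 0 lay below them. The log2 fold changes were 0.66 (limma adjusted p = 0.118) and 0.28 (adjusted p = 0.497), and the first passed with the replicate block (adjusted p = 0.0225). Zfp597 and Zfp827, chosen after their values were seen, had large negative values without a call: -0.85 for Zfp597 with shRNA2 (adjusted p = 0.0643) and -0.78 for Zfp827 with shRNA1 (adjusted p = 0.101). Zfp827, a protein linked to alternative telomere maintenance, passed with the block in the average (adjusted p = 0.00192).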
